A study of Drosophila melanogaster with 47 samples.

Results

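The Hox genes of Drosophila melanogaster lie on chromosome arm 3R in the Antennapedia complex (ANT-C) and the bithorax complex (BX-C). ChIP-seq (chromatin immunoprecipitation and sequencing) sequences the DNA that an antibody pulls down together with a protein, and places where reads pile up are called peaks. Peaks of 16 such lists were taken as members where they overlapped 3R 2480000 to 2830000 (ANT-C) or 3R 12480000 to 12810000 (BX-C) on build dm3. This rule placed 57 peaks in ANT-C and 46 in BX-C, 103 of the 12745 peaks of the series and 103 of the 2888 on arm 3R. The other 2785 peaks of 3R served for comparison. The series holds 47 samples, 35 immunoprecipitated and 12 of input chromatin, and maps 14 transcriptional regulators. Each list stands for a group of 2 or 3 replicates and carries no value per replicate.

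Embryos gave 6 lists: Stat92E and prd at 0 to 12 h, br and Cmi at 0 to 8 h, and Hr78 at 8 to 16 h, with prd mapped by a pair of antibodies, Prd-RF12 and Prd-RF13. Larvae of the stage label W3L gave 4 lists: AbdB, Notch, Lola and Hr78. Adult females gave 1 list (cnc), S2 cells gave 1 (CG8478) and Kc167 cells gave 4 (Su(H), insv, h and dm). Both lines are established cell lines of embryonic origin. The 6 lists of Stat92E, Notch, Lola, AbdB and Hr78 at both stages were made with an anti-GFP antibody on animals whose source labels name a GFP fusion (LolaI-GFP for Lola), and the other 10 with antibodies against the regulators. The labels do not say what drives a fusion or whether the native copy remained. The Cmi embryos carry the source label Exd-GFP although their antibody was KW1-cmi. Whole embryos, larvae and females mix cell types with different Hox activity. The Kc167 lists share 1 input in the labels, and so do both prd lists. List length ran from 100 peaks (dm) to 2516 (Notch) and the lowest −log10 p kept in a list from 2.62 to 7.64. Read depth is unknown.

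Hox genes encode homeodomain transcription factors that give body segments their identity, and their order along the chromosome follows the order of the segments they act in. ANT-C holds the genes of the head and anterior thorax, lab, pb, Dfd, Scr and Antp, and with them zen, zen2, bcd, Ama and ftz, which are not homeotic. BX-C holds Ubx, abd-A and Abd-B, which act in the posterior thorax and abdomen. Both complexes have long stretches of regulatory DNA, and Polycomb and trithorax group proteins hold their genes off or on through development. All 8 Hox genes were found by symbol in a RefSeq gene table of a later assembly, in which they stand by increasing position as lab, pb, Dfd, Scr and Antp in ANT-C and Ubx, abd-A and Abd-B in BX-C. That table served for names and order only, and no peak was assigned to a gene.

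Most of the regulators had a peak in the complexes, and they differed widely in how many. At least 1 peak lay in ANT-C in 11 lists of 10 regulators and in BX-C in 11 lists of 10 regulators, and 12 lists of 11 regulators had a peak in at least 1 complex. The lists of cnc, insv, dm and Prd-RF13 had none. Lola had no peak in ANT-C, and br had none in BX-C.

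Among the developmental regulators mapped in embryos, Prd-RF12 had 6 peaks in ANT-C and 7 in BX-C, 13.1% of its 99 peaks on 3R (95% Clopper-Pearson interval 7.18 to 21.4). Paired (prd) is a pair-rule protein of early segmentation with a paired domain and a homeodomain. The second prd list, Prd-RF13, had 0 of 34, which allows a share of up to 8.82%. The prd lists had no overlapping peak on 3R: 0 of 13 Prd-RF12 peaks in the complexes and 0 of 86 on the rest of 3R overlapped Prd-RF13. The prd peaks of the complexes thus rest on the Prd-RF12 antibody alone. Why the antibodies differ was not tested. Stat92E, the transcription factor of the JAK/STAT pathway, had 2 peaks in ANT-C and 3 in BX-C, 20% of only 25 on 3R (6.83 to 40.7). Hr78, a nuclear receptor, had 6 and 4 peaks in the embryonic list, 8.0% of 125 (3.90 to 14.2). For scale, the windows make up 2.44% of the part of 3R spanned by peaks, and all of these intervals except the limit for Prd-RF13 lay above that figure.

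Cmi, a subunit of a histone H3K4 methyltransferase complex, had 8 peaks in ANT-C and 5 in BX-C, 3.29% of 395 (1.76 to 5.56). The zinc-finger protein Broad (br), an ecdysone-response factor, had 3 peaks in ANT-C and 0 in BX-C of 93 on 3R, 3.23% (0.67 to 9.14). For both lists the interval contained 2.44%.

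In larvae, AbdB, the Hox protein of the posterior abdomen and product of Abd-B within BX-C, had 4 peaks in ANT-C and 3 in BX-C, 4.29% of 163 (1.74 to 8.65). Notch, the receptor whose intracellular part enters the nucleus, had 9 and 11, the largest number of any list, and 3.51% of its 569 (2.16 to 5.38). Hr78 had 6 and 3 peaks, 3.73% of 241 (1.72 to 6.97). Lola, a BTB zinc-finger protein, had 0 and 1 of 70 (1.43%, 0.036 to 7.70). All 4 larval intervals contained 2.44%.

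In cell lines, CG8478, known here by its gene number only, had 11 peaks in ANT-C and 7 in BX-C in S2 cells, 4.90% of 367 (2.93 to 7.64). Su(H), the DNA-binding partner of Notch, had 1 and 1 in Kc167 cells, 0.417% of 480 (0.0505 to 1.497), and was the only list of the 16 whose interval lay below 2.44%. Hairy (h), a pair-rule repressor, had 1 and 1 of 53 (3.77%, 0.46 to 13.0). The corepressor insv had 0 of 47 (a limit of 6.38%) and the Myc homolog dm 0 of 10 (a limit of 30%), so that for dm nothing could be read at this list length. In adult females cnc, an Nrf2-related factor, had 0 of 117, a limit of 2.56%. The 4 Kc167 lists together had 4 of 590 (0.678%), of which Su(H) supplied 480 peaks, and 2 of 110 (1.82%) without it, or 2 of 537 (0.372%) without h. The S2 list had 18 of 367, and it is a different regulator, so cell line and regulator cannot be told apart.

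**Figure D1:**
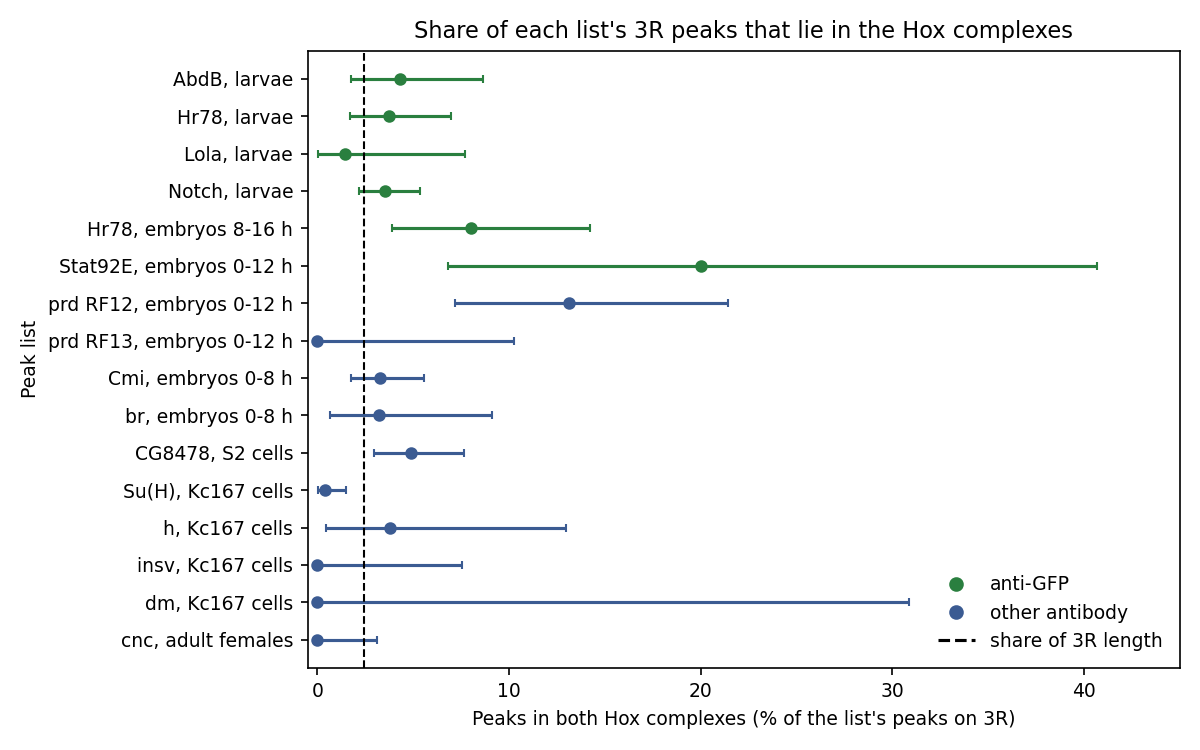
Share of each list's 3R peaks that lay in ANT-C and BX-C (percent), 1 point per list with exact 95% intervals, beside the 2.44% of the spanned arm that the windows cover. Stat92E (20%) and Prd-RF12 (13.1%) stand highest, and Su(H) (0.417%) is the only list whose interval lies below the line.

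Set against the density of the rest of 3R, 57 peaks were found in ANT-C where 35.8 would lie at equal density (16.3 against 10.2 per 100 kb), and 46 in BX-C where 33.8 would. The ratios were 1.59 for ANT-C, 1.36 for BX-C and 1.48 for both together. This pooled count weights long lists most. Restricted to the 200 peaks with the highest score of each list, the ratio for both complexes was 2.34. With windows 50 kb wider at each end the ratio was 1.28, and leaving out each list in turn gave 1.33 (without Prd-RF12) to 1.75 (without Su(H)). By list, the 95% Poisson interval of the count in both windows lay above the number expected for Prd-RF12 (13 against 2.15), Stat92E (5 against 0.5), Hr78 in embryos (10 against 2.87) and CG8478 (18 against 8.72). It lay below for Su(H) (2 against 11.9), and it contained the expected number in the other 11 lists. Intervals cover counting error only. ANT-C alone gave 3 lists above and 1 below, and BX-C alone 2 above and 1 below.

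With each regulator weighted equally, neither complex passed the test against the rest of the arm. The mean log2 ratio of observed to expected peaks, with 0.5 added to each, was 0.07 ± 1.27 in ANT-C (SD, n = 14 regulators, 9 of 14 above 0; exact sign-flip permutation test over 16384 arrangements, two-sided p = 0.838, adjusted p = 0.844 by Benjamini-Hochberg over 7 tests). In BX-C it was −0.06 ± 1.22 (9 of 14 above 0; exact permutation p = 0.844, adjusted p = 0.844). ANT-C minus BX-C was 0.13 ± 0.94, with 5 of 14 regulators above 0 (exact permutation p = 0.634, adjusted p = 0.844). Regulators with no peak pull these means down, and the ratio with 0.5 added has a mean of about −0.25 for lists of these lengths even at equal density. Centred on that mean, the values were 0.31 for ANT-C (exact permutation p = 0.368) and 0.18 for BX-C (exact permutation p = 0.589).

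Crowding of this order also occurred elsewhere on the arm. Of the 75 non-overlapping windows of 3R with the length of ANT-C, 10 (13.3%) held at least as many peaks, with a median of 33 and a range of 4 to 86. Of the 80 windows with the length of BX-C, 16 (20%) held at least as many, with a median of 33 and a range of 3 to 87, and 14 held more. The fullest were 3R:11900075-12250075 with 86 peaks, for the length of ANT-C, and 3R:11880077-12210077 with 87, for that of BX-C, a stretch that overlaps the first and ends below BX-C. Next came 3R:14000081-14350081 with 78 and 3R:17160093-17490093 with 73. The number of regulators with a peak was 10 in each complex, equal to the median window.

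**Figure D2:**
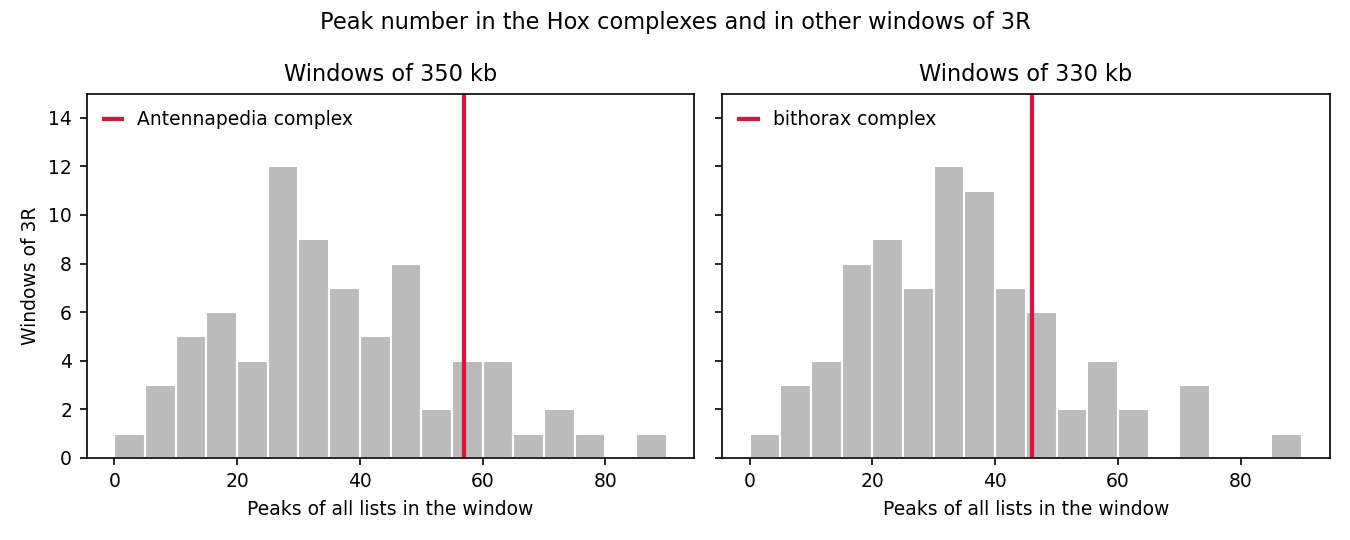
Number of windows of arm 3R by the number of peaks they hold, for windows as long as ANT-C (left) and as BX-C (right), with the complex marked by a line. ANT-C (57 peaks) and BX-C (46 peaks) lie above the median of 33 and inside the range of other windows.

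Among the materials, embryos placed 44 of 771 peaks of 3R in the complexes (5.71%), larvae 37 of 1043 (3.55%), cell lines 22 of 957 (2.30%) and adult females 0 of 117. The cell-line share rested on single lists: it was 0.678% without CG8478 and 4.19% without Su(H), which is above the larval share. The mean log2 ratio for both windows was 0.96 in embryos and −0.63 in cell lines, a difference of 1.59 (6 against 5 lists, 5 of 6 against 2 of 5 above 0; exact permutation test over 462 arrangements, p = 0.108, adjusted p = 0.379). Larvae averaged 0.33 and embryos 0.96, a difference of −0.63 (4 against 6 lists; exact permutation p = 0.438, adjusted p = 0.767). Neither difference passed the test. Among embryos, the 0 to 12 h lists placed 11.4% of their 158 peaks in the complexes, the 0 to 8 h lists 3.28% of 488 and the 8 to 16 h list 8.0% of 125. Each stage holds different regulators, so stage and regulator cannot be told apart except for Hr78.

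Anti-GFP lists placed 52 of 1193 peaks in the complexes (4.36%) and lists of other antibodies 51 of 1695 (3.01%). In BX-C the mean log2 ratio was 0.83 for anti-GFP and −0.45 for the other antibodies, a difference of 1.28, with 6 of 6 against 4 of 10 lists above 0 (exact permutation test over 8008 arrangements, p = 0.0582, adjusted p = 0.379). In ANT-C it was 0.67 and −0.12, a difference of 0.79 (exact permutation p = 0.265, adjusted p = 0.619). Larval lists were all anti-GFP and cell-line lists were none. Within embryos alone, 2 anti-GFP lists averaged 1.74 and the other 4 lists −0.04 in BX-C (exact permutation p = 0.333, where the smallest p that 15 arrangements allow is 0.0667). In ANT-C the same lists averaged 1.72 and 0.71 (exact permutation p = 0.333).

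Along each complex the peaks were uneven. The 57 peaks of ANT-C formed 26 regions once overlapping peaks of all lists were merged, and the 46 of BX-C formed 22. Split at the middle of each window, a division chosen after the positions were seen, ANT-C held 40 peaks in its higher-coordinate section, on the Antp side of the gene order, and 17 in its lower section, on the lab side. BX-C held 33 in its higher section, on the Abd-B side, and 13 in its lower section, on the Ubx side. By merged region the split was less uneven in ANT-C, where the lower section held 10 of 26 regions, and in BX-C it held 6 of 22. The counts by section given here are of peaks, so a site bound in several lists enters more than once. In BX-C, the anti-GFP lists had 21 peaks on the Abd-B side and 4 on the Ubx side, and the other lists 12 and 9. In ANT-C the higher section held 20 of 27 anti-GFP peaks (74.1%) and 20 of 30 of the others (66.7%). All 7 AbdB peaks lay in the higher sections, 4 in ANT-C and 3 in BX-C. All 3 Stat92E peaks and all 7 Hr78 peaks (4 embryonic and 3 larval) of BX-C did so too, whereas in ANT-C 1 of 2 Stat92E peaks and, at each stage, 2 of 6 Hr78 peaks lay in the lower section.

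**Figure D3:**
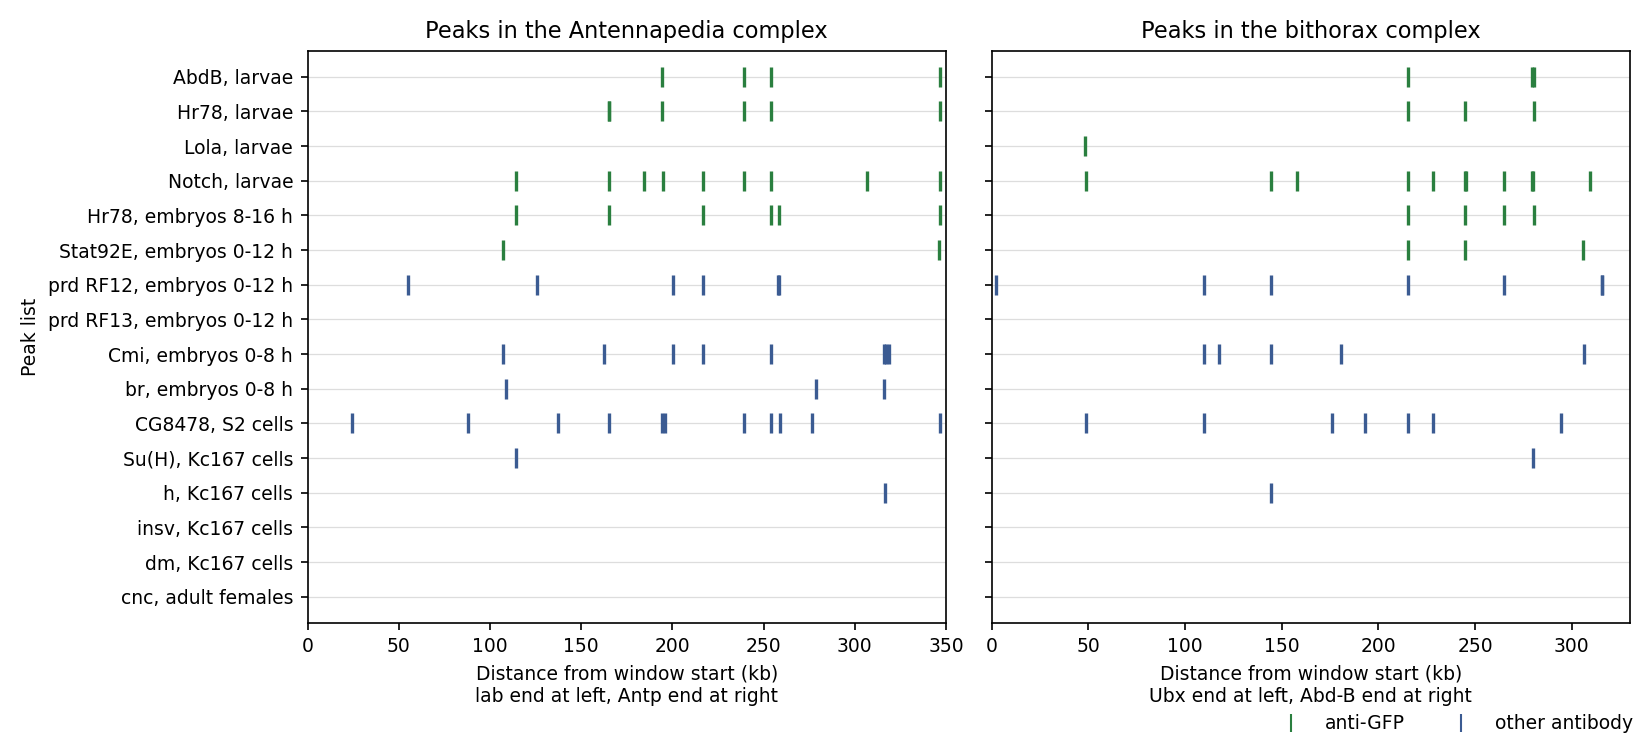
Position of every peak along ANT-C (left panel) and BX-C (right panel) as the distance from the window start in kb, 1 row per list, with or without a peak. The higher-coordinate section holds 40 of 57 peaks in ANT-C and 33 of 46 in BX-C, and columns of aligned marks are the regions bound in several lists.

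The longest stretch with no peak of any list in BX-C was 60.3 kb, 3R:12529127-12589388, followed by 46.1 kb at 3R:12482258-12528388, both in the section on the Ubx side. In ANT-C the longest were 32.8 kb at 3R:2534863-2567645 and 30.1 kb at 3R:2504604-2534722. Gaps over 30 kb made up 8% of 25 gaps in ANT-C and 9.52% of 21 in BX-C, against 16.9% of 1491 on the rest of 3R, while the median gap was 11.1 kb in ANT-C and 12.7 kb in BX-C, against 6.01 kb. Only gaps between regions of the same window were counted in the complexes. Stretches that cross a window edge, which can be long, were left out, so the shares of long gaps cannot be compared directly. Just inside the lower edge of ANT-C the first peak was CG8478 at 3R:2504202-2504603, and the nearest peak outside it was AbdB at 3R:2300043-2300393, 179.6 kb below the edge. The other nearest outside peaks lay 32.8 kb above ANT-C (CG8478), 6.62 kb below BX-C (Notch) and 18.5 kb above BX-C (CG8478).

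Peaks of different regulators often lay at the same place, in the complexes and elsewhere on 3R. At least 2 regulators were found at 20 of the 48 regions of the complexes (41.7%, 27.6 to 56.8), against 33.8% of 1494 regions on the rest of 3R, a share inside that interval. With the top-scoring 50% of each list the shares were 34.3% and 34.2%. ANT-C had 11 of 26 (42.3%) and BX-C 9 of 22 (40.9%). At least 3 regulators were found at 16 of 48 (33.3%, 20.4 to 48.4), against 18.5% (16.5 to 20.5). At least 4 were found at 8 (16.7%, 7.48 to 30.2), against 9.84%, and at least 5 at 3 (6.25%, 1.31 to 17.2), against 4.95%. The count of 3 fell to 1 when the list of AbdB, CG8478 or Notch was left out. Only at 3 or more regulators did the interval leave out the value of the rest of 3R. Alternatives were run at 2 or more and at 5 or more regulators, not at 3 or more. Neighbouring regions are not independent, and no test was made of these shares.

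**Figure D4:**
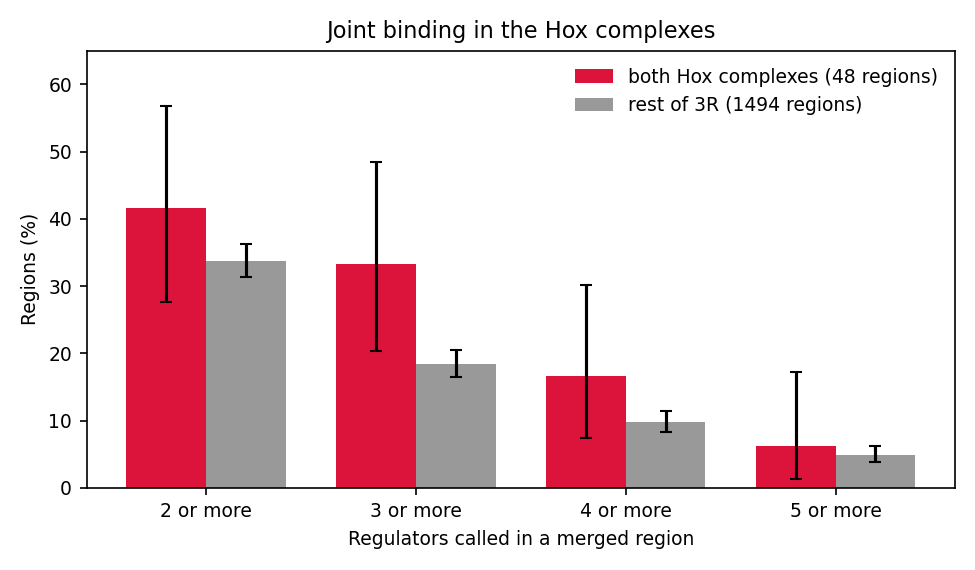
Percent of merged regions bound by at least 2, 3, 4 and 5 regulators in the Hox complexes (48 regions) and on the rest of 3R (1494 regions), with exact 95% intervals. At 2 or more regulators the complexes stood at 41.7% and the rest at 33.8%. At 3 or more the values were 33.3% and 18.5%, and at 5 or more 6.25% and 4.95%.

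Notch was the most frequent list at the 20 joint regions, present at 14 (70%, 45.7 to 88.1), against 68.5% of 505 joint regions on the rest of 3R. Hr78 in embryos was at 10 (50%, 27.2 to 72.8), against 19.6%, Prd-RF12 at 7 (35%, 15.4 to 59.2), against 6.73%, and Stat92E at 5 (25%, 8.66 to 49.1), against 2.18%. CG8478 was at 10 (50%), against 39.6%. AbdB was at 6 (30%, 11.9 to 54.3), against 29.1%. Su(H) was at 2 (10%, 1.23 to 31.7), against 41.2%. For embryonic Hr78, Prd-RF12 and Stat92E the interval lay above the value of the rest of 3R, for Su(H) below it, and for Notch, CG8478 and AbdB it contained that value. Embryonic Hr78, Prd-RF12, Stat92E and CG8478 also had more peaks in the windows than expected, and Su(H) fewer. These shares were not adjusted for that density, so density and joint binding cannot be told apart here.

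The site with the most regulators lay in BX-C at 3R:12695055-12695446, in the higher-coordinate section. It held peaks of 6 regulators from 7 lists, AbdB, Notch and Hr78 in larvae, Hr78, Stat92E and Prd-RF12 in embryos, and CG8478 in S2 cells. Their summits, the positions of highest signal, lay within 111 bp of one another. Scores there, as the authors' −log10 p, were 23.1 for Notch, 12.4 for Hr78 in embryos, 10.6 for Hr78 in larvae, 11.2 for CG8478, 7.70 for AbdB, 6.32 for Stat92E and 5.53 for Prd-RF12. The site held the best BX-C peak of Notch, of Hr78 at both stages and of Stat92E, and not that of AbdB, CG8478 or Prd-RF12.

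The strongest AbdB peak of BX-C, 3R:12759786-12760823, lay farther toward the Abd-B side and was 1038 bp wide. Its score was 11.2, rank 12 of the 163 AbdB peaks on 3R, and Notch, Hr78 at both stages and Su(H) had peaks within it, with summits inside 241 bp. The Su(H) peak there, 3R:12760148-12760248, was that list's only one in BX-C (score 3.38). A further AbdB peak at 3R:12759458-12759642 (score 5.69) was the only one of the 7 with no other regulator. On the Ubx side, 3R:12528389-12529126 joined CG8478 (score 19.4), Notch (7.62) and the single Lola peak (5.08). The Notch and Lola peaks each overlapped the CG8478 peak but not one another, and the summits spread over 336 bp.

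At 3R:12624214-12624813 in BX-C, peaks of Cmi in embryos, Notch in larvae and h in Kc167 cells had summits at positions 12624596, 12624598 and 12624601, and the Prd-RF12 summit lay at 12624356. The Cmi peak there had a score of 31.9 and a fold enrichment of 6.86 and was rank 2 of all 1685 Cmi peaks. The h peak was rank 5 of 216 (score 7.50), and the Prd-RF12 peak was its best in BX-C (9.41), whereas the Notch peak was weak for its list (7.21). At 3R:12589389-12590308, on the Ubx side, the CG8478 peak was rank 3 of 1343 and the first of 367 on 3R (fold 5.59, score 24.5), with Cmi (6.98) and Prd-RF12 (5.34) inside it. Both sites lay in the lower section, where no AbdB, Hr78 or Stat92E peak of BX-C was found.

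In ANT-C, 5 regulators met at 3R:2733862-2734347, where AbdB, Notch and Hr78 of larvae, Hr78 and Cmi of embryos and CG8478 of S2 cells had summits within 82 bp. The Notch peak scored 30.6 (fold 5.74, rank 4 of 569 on 3R) and the embryonic Hr78 peak 28.4 (fold 5.43, rank 2 of 125). The larval Hr78 peak scored 9.73, its best in ANT-C, and AbdB 5.70. A second site with 5 regulators, 3R:2826213-2826969, held AbdB, Notch and Hr78 of larvae, Hr78 and Stat92E of embryos and CG8478, and its summits spread over 361 bp. It lay 3.03 kb from the upper window edge and held the best ANT-C peak of CG8478 (3R:2826274-2826926, score 13.8).

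The next ANT-C sites, 3R:2718798-2719523 and 3R:2674256-2674822, each joined AbdB, Notch, Hr78 of larvae and CG8478, with summits within 192 and 103 bp. The first held the best AbdB peak of ANT-C (3R:2718884-2719467, score 10.3, rank 17 of 163). At 3R:2696598-2696827 the set was another one, Notch with Cmi, Hr78 of embryos and Prd-RF12, within 97 bp. AbdB, Notch, CG8478 and larval Hr78 thus met at 4 of the 5 named sites of ANT-C and at 1 of the 5 of BX-C. The named sites were picked for their number of regulators, which favours lists that often overlap. On the rest of 3R, AbdB peaks overlapped Notch at 92.3%, larval Hr78 at 60.3% and CG8478 at 34.6%. No share was computed there for the 4 lists together.

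The best-scoring ANT-C peaks of the other lists had few partners or none. The best Cmi peak of ANT-C, 3R:2798747-2799316, was rank 14 of 1685 (score 23.1, fold 5.66) and overlapped no other regulator. The best Prd-RF12 peak of ANT-C, 3R:2534723-2534862 (7.84), was also alone. The best br peak, 3R:2795293-2796509, was rank 6 of 93 on 3R (score 10.3), and the single h peak of ANT-C at 3R:2796364-2796545 (3.78) overlapped its end, as did a Cmi peak. Stat92E had its best ANT-C peak at 3R:2587048-2587620 (5.12, rank 10 of 25 on 3R), next to Cmi. The one Su(H) peak, 3R:2594126-2594318 (3.45, rank 277 of 480), shared its site with Notch and embryonic Hr78.

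The Abd-B side of BX-C held 4 smaller joint sites. At 3R:12724683-12725104 Notch (score 14.2), Stat92E (5.89) and Hr78 in embryos (11.2) and in larvae (6.19) overlapped, and at 3R:12744617-12745116 Notch (11.1) overlapped embryonic Hr78 (7.76) and Prd-RF12 (4.996). CG8478 and Notch met at 3R:12708184-12708491, and Cmi and Stat92E at 3R:12785867-12786316. In ANT-C, 3R:2594071-2594363 joined Notch (10.8), embryonic Hr78 (10.5) and Su(H), and its summits lay within 69 bp. These 5 sites were named after their values were seen. Over the 19 joint regions of the complexes with 1 peak per list, the summits spread over a median of 111 bp, against 87 bp in 408 such regions of the rest of 3R, and 78.9% kept within 250 bp, against 80.9%.

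The remaining 28 regions, 15 in ANT-C and 13 in BX-C, had a peak of 1 regulator each (58.3% of 48, against 66.2% on the rest of 3R). By antibody, anti-GFP lists and the other lists met at 16 regions (33.3%), against 17.2% on the rest of 3R. Only anti-GFP lists were found at 8 (16.7%), against 24.1%, and only the other antibodies at 24 (50%), against 58.7%. The makeup differed between the complexes, with 2 anti-GFP regions of 26 in ANT-C and 6 of 22 in BX-C, a difference that was not tested.

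Within the lists, peaks of the complexes ranked somewhat higher than the rest of the arm by score. The median percentile among a list's 3R peaks was 57.7 in the complexes and 49.5 on the rest, and 16 of 103 peaks (15.5%) were in the top 10% of their list, against 9.87%. No interval was computed for that share and no test was made. Larval Hr78, Prd-RF12, Stat92E, Lola and Su(H) had 0 peaks of the complexes in their top 10%. AbdB had a median percentile of 81.6 and CG8478 of 78.9, while Prd-RF12, dense as it was in the complexes, had 44.9. Peaks had a median width of 300 bp in the complexes and 324 bp on the rest.

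**Figure D5:**
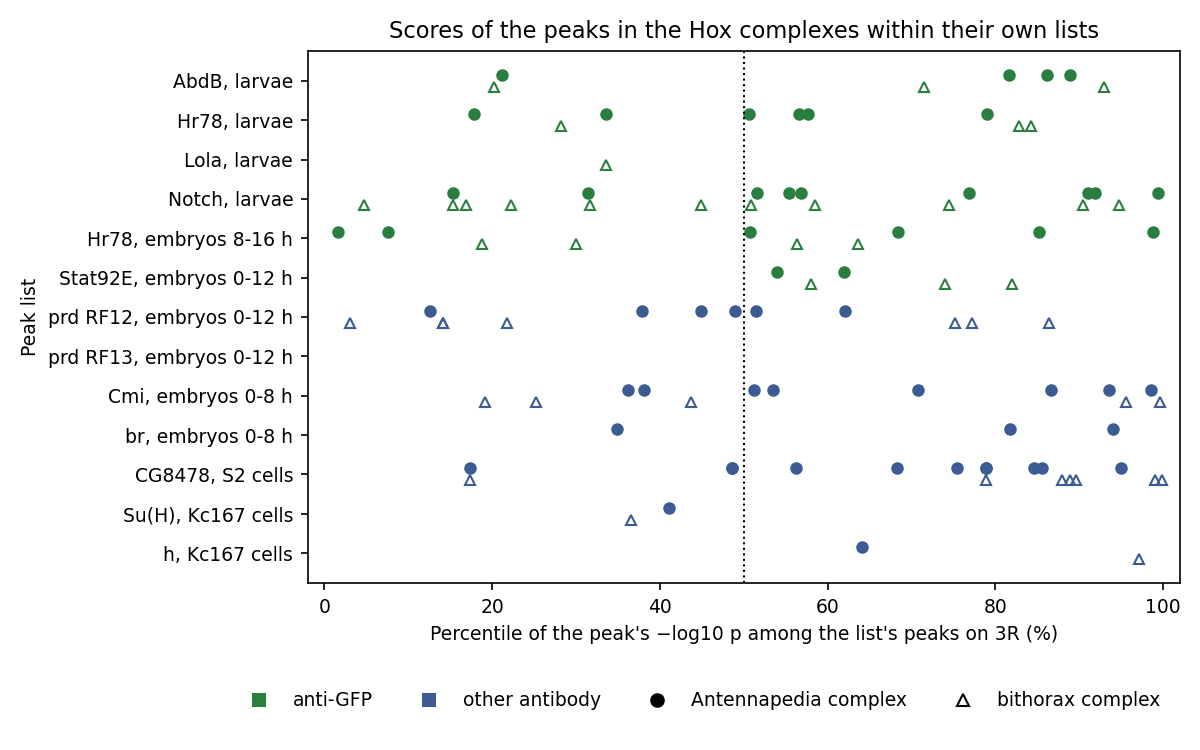
Score percentile of each peak of the complexes among the 3R peaks of its own list (100 is the highest −log10 p), 1 row per list, with ANT-C and BX-C peaks marked apart. Peaks of AbdB (median 81.6) and CG8478 (78.9) sit toward the high end and those of Prd-RF12 (44.9) are spread over the range.

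Of the 103 peaks, 75 overlapped a peak of another regulator (72.8%, 63.2 to 81.1), against 64.4% of the 2785 on the rest of 3R. The shares were 42 of 57 in ANT-C (73.7%) and 33 of 46 in BX-C (71.7%). By list, 6 of 7 AbdB peaks were shared, against 96.8% of its peaks elsewhere on 3R, all 9 larval Hr78 peaks, against 94.8%, and all 10 embryonic ones, against 89.6%. Notch had 14 of 20 (70%), against 66.1%, and CG8478 10 of 18 (55.6%), against 65.9%. Cmi had 8 of 13 (61.5%), against 51.8%, and Prd-RF12 7 of 13 (53.8%), against 40.7%. All 5 Stat92E peaks were shared, against 60% of its 20 elsewhere.

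For 3 of the pairs described here the interval of the share with a given partner lay above the rest of 3R. In the complexes 9 of 20 Notch peaks overlapped embryonic Hr78 (45%, 23.1 to 68.5), against 16.9% on the rest of 3R, and 4 of 20 overlapped Prd-RF12 (20%, 5.73 to 43.7), against 3.46%. Of 13 Cmi peaks, 4 overlapped Prd-RF12 (30.8%, 9.09 to 61.4), against 3.14%. For another 2 pairs the interval contained the value of the rest of 3R. Of 7 AbdB peaks, 5 overlapped CG8478 (29.0 to 96.3%), against 34.6%, and of 20 Notch peaks, 2 overlapped Su(H), its partner in signalling (10%, 1.23 to 31.7), against 19.1%. The Notch list comes from larvae and the Su(H) list from a cell line, so material and regulator cannot be told apart in that pair. Other intervals lay below the rest of 3R. Of 18 CG8478 peaks, 0 overlapped Su(H) (0 to 18.5%), against 35.2%, and of 13 Cmi peaks 0 did (0 to 24.7%), against 25.4%. Embryonic Hr78 and Prd-RF12 had more peaks in the windows than expected and Su(H) fewer, and these shares were not adjusted for density. All of these pairs were picked from 240 ordered pairs after their values were seen, and no test was made.

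Hr78 was the only regulator mapped at more than 1 stage. Of its 9 larval peaks in the complexes, 7 overlapped an embryonic Hr78 peak (77.8%, 39.99 to 97.2), against 34.1% of 232 larval peaks on the rest of 3R. The embryonic Hr78 list had more peaks in the windows than expected (10 against 2.87). These shares were not adjusted for that density, so density and overlap of the stages cannot be told apart. With the top-scoring 50% of each list the larval count was 3 of 6, for which no value of the rest of 3R was computed. In the other direction 6 of 10 embryonic peaks overlapped a larval one (60%, 26.2 to 87.8), against 68.7% of 115. The counts differ because a pair of larval peaks overlapped 1 embryonic peak of ANT-C, 3R:2645041-2645400. Hr78 occupied sites of both complexes at both stages, and in BX-C all of its peaks at either stage were on the Abd-B side.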

How the data were processed

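Peak lists of 16 groups of immunoprecipitated samples were analysed. Per the submitters' processing notes, CASAVA 1.7.0, BWA, MACS2 and build dm3 were used; the sources used here give neither their order, settings and controls nor whether replicates were pooled before peak calling. Each deposited list gave peak positions, the authors' fold enrichment (a ratio) and their −log10 p, used here as the score. A further deposited value was how far the summit lay from the peak start, in bp. Scores and folds are the authors' own and were used only within a list. The labels do not say whether replicates came from separate animals or cultures.

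The members and lists were chosen with earlier results of these data known. A peak was in a complex if it overlapped its window by at least 1 bp, and was shared if it overlapped a peak of another regulator by at least 1 bp. Peaks were merged at 1 bp overlap. Expected numbers came from the rest of 3R, whose span was taken from the outermost peaks. Regulators with a pair of lists were averaged for the sign-flip tests. The tests of antibody and material instead took each list as a separate unit. There the Hr78 lists, both anti-GFP, stood 1 in embryos and 1 in larvae without pairing, and both prd lists stood in embryos. Shares have exact Clopper-Pearson intervals and counts exact Poisson intervals (95%), for counting error only; a count of 0 was given a limit of 3 counts. Named regions were, in each complex, the 5 with the most regulators, the best-scoring peak of each list, the longest gap and the windows of 3R with more peaks. The exact permutation tests are two-sided. On simulated lists the designed log2 ratio had a mean below 0 at equal density, so the centred ratio and the difference in percentage points were added after seeing the data, as was the pooled ratio of all peaks. Alternatives also varied score limits, added count, window edges, background and overlap, and left out each list in turn. Summits, gaps and pairs are described without tests. Calculations used Python 3.11.15, numpy 2.4.6, scipy 1.17.1, pandas 2.3.3 and matplotlib 3.10.9.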

Additional observations from a re-analysis of the deposited data

How the results depend on the processing

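None of the 7 tests passed an adjusted p of 0.05 under any of 185 alternatives (lowest adjusted p 0.0573, anti-GFP minus other antibodies in BX-C without the Prd-RF12 list, exact permutation p = 0.00819; 5 alternatives had an unadjusted p under 0.05, and none of the tests as reported did). The mean log2 ratio of BX-C, −0.06 as reported, changed sign to 0.024 with the top-scoring 50% of each list, 0.12 with the 200 best peaks, 0.023 with an added count of 1, 0.032 with windows 20 kb narrower, 0.0297 with 16 lists counted separately, 0.18 when centred and 0.85 in percentage points. That of ANT-C became −0.082 with windows 50 kb wider, and ANT-C minus BX-C became −0.011 in percentage points. These means lie close to 0, and the cause was not tested. Leaving out each list in turn gave −0.058 to 0.24 for ANT-C (below 0 without CG8478, Stat92E, br or Prd-RF12), −0.24 to 0.0903 for BX-C (above 0 without Su(H), br, cnc, insv or Prd-RF13) and −0.068 to 0.27 for ANT-C minus BX-C (below 0 without br), and 1 to 3 regions with 5 or more regulators. Fewer peaks enter by construction under the score limits: BX-C held 25 with the top-scoring 50% and 16 with the 200 best, ANT-C 20 with the 200 best, and the pooled ratio of observed to expected peaks was 1.85 and 2.34. That ratio, 1.48 as reported, was 1.28 with windows 50 kb wider and 1.33 to 1.75 with each list left out in turn. The antibody, material and stage differences kept their direction and did not pass under any alternative run. The share of joint regions, which had no test, was 34.3% in the complexes and 34.2% on the rest of 3R with the top-scoring 50%. No paired analysis was possible because the lists carry no value per replicate, so replicate numbers could not serve as a block. Lists of few peaks on 3R (dm 10, Stat92E 25, Prd-RF13 34) give wide intervals, and list length limits what an absent peak can show.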
